A study of Mus musculus with 6 samples.

Results

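The genes described here were 40 genes of skeletal muscle, out of 34745 genes in the deposited tables, that were counted in RNA-seq libraries of hematopoietic stem cells (HSCs). They encode the contractile filaments, the calcium release machinery, the acetylcholine receptor of the nerve-muscle synapse and the transcription factors of the muscle lineage. They were taken by gene symbol from a list that was drawn up because such genes had been counted in wild-type (WT) and hardly at all in knockout (KO) libraries of this same series. The measured difference between WT and KO therefore chose these genes. It is given as a description only, and nothing is supported with it. Fits over all genes included these genes too, and nothing is read from whether they passed a threshold. All 40 symbols were found in the tables, each had at least 1 count, and the list has no numeric threshold, so that no gene lay just inside or outside one.

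HSCs were sorted as CD150+CD34-CD48- LSK cells (lineage-negative, Sca1-positive, cKit-positive) from bone marrow of adult C57BL/6 mice, and bulk RNA-seq gave 3 WT and 3 KO libraries. WT samples carried floxed alleles of Med23, a subunit of the Mediator complex, on both chromosomes without Cre. KO samples carried the same alleles with the Mx1-cre transgene. The floxed alleles were thus common to both groups, and the transgene was present in KO only. Mx1-cre is driven by an interferon-inducible promoter that acts in many cell types, so deletion after poly(I:C) is not restricted to HSCs. According to the methods, deletion was induced by repeated intraperitoneal poly(I:C), and whether the WT mice of these libraries received it too is not stated there. For its blood counts, the study describes WT and KO mice alike as sampled after poly(I:C). The ages of the mice in weeks are not given in the sources used here, nor is it stated whether each library came from a separate animal. By their Y-linked counts, given below, the third library of each group came from other animals than the rest. Apart from that, the spread between libraries may be technical.

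Skeletal muscle fibres are formed by fusion of myoblasts. The myogenic factors Myf5 and MyoD commit cells to the lineage, myogenin drives differentiation and Myf6 (MRF4) acts mainly in maturing fibres. Fibres build embryonic and perinatal myosin heavy chains first and replace them with adult fast and slow isoforms, and regenerating adult fibres pass through the same isoforms. Cardiac actin, cardiac troponin T, the atrial light chain Myl4 and the gamma subunit of the acetylcholine receptor are likewise used by developing skeletal muscle and later give way to adult forms. HSCs are not known to use this contractile program.

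Counts over all genes ranged from 3537269 to 8131344 per library. At these depths 3 counts, used here as the smallest detectable signal, correspond to between 0.369 and 0.927 CPM, the level used here, in which counts are divided by library totals scaled with edgeR's TMM method. The deleted gene, Med23, was counted 232, 576 and 78 times in the WT libraries and 156, 164 and 182 times in the KO libraries, taken in order of replicate number here and throughout. Its log2 fold change was -0.54 with a standard error of 0.41 (edgeR's quasi-likelihood test, adjusted p = 0.989). The library labelled WT replicate 3 had less Med23 in CPM than every KO library, so at this gene it goes against its label, and results are also given without it. Since Med23 counts did not separate the groups, they cannot settle whether the label is right. The 4 Y-linked genes Ddx3y, Eif2s3y, Kdm5d and Uty summed to 1036, 1855 and 1 counts in WT and to 1529, 1606 and 0 counts in KO. The third library of each group thus had almost no Y-linked counts, as in female mice, and came from a different animal than the others. Whether this bears on the muscle genes was not tested. Their summed raw counts were similar in the 3 WT libraries, but after scaling the sums were 386.9, 273.8 and 691.4 CPM. Of the genes of the sort, Kit had between 2576 and 7624 counts and Ly6a between 447 and 1238 counts in every library, Slamf1 (CD150) between 68 and 740, and Cd48 was at 0 in all KO libraries and at 10, 28 and 0 counts in WT. Cd34 had between 1109 and 2930 counts although the cells were sorted as CD34-negative at the surface.

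Promoters and coding starts of leading genes are shown first, because the results turn on these genes and their relatives. The 250 bases before the RefSeq start site (GRCm38.p6) are given 5′ to 3′ for Myh3, the embryonic myosin heavy chain with the most counts, for Acta1, which encodes skeletal alpha-actin, and for Myog, which encodes myogenin. Capitals mark the sequence TATAAA, the CAGCTG form of the E-box bound by myogenic factors, the core of the MEF2 motif (TANNNNTA with A or T at each N) and the CArG box bound by serum response factor (CCNNNNNNGG with A or T at each N). The Myh3 stretch is chr11:67078050-67078299 on the plus strand, the Acta1 stretch chr8:123894776-123895025 on the minus strand and the Myog stretch chr1:134289754-134290003 on the plus strand.
Myh3: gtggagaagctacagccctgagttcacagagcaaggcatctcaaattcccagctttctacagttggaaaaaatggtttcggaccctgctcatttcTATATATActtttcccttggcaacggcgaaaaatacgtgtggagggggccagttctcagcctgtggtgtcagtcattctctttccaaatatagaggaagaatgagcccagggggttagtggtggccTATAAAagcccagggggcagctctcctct
Acta1: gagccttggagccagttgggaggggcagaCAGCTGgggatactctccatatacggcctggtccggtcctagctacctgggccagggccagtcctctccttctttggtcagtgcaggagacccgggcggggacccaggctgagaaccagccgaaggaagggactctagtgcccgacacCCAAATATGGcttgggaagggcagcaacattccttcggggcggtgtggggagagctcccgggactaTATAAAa
Myog: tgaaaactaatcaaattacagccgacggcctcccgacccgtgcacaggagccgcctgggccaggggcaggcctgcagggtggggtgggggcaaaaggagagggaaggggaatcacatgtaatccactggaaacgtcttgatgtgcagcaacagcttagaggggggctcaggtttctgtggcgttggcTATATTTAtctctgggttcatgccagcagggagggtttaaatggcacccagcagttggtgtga

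RefSeq promoters were found for 34 of the 40 genes. CAGCTG stood in the 250 bases of 15 of them, or 44.1%, against 14.7% of 27025 genes with a promoter in the table. The MEF2 core stood in 9 (26.5% against 9.85%), the CArG box in 3 (8.82% against 1.62%) and TATAAA, read on either strand, in 8 (23.5% against 14.3%). The general E-box CANNTG, of which CAGCTG is one form, stood in 26 (76.5% against 69.3%). All patterns but TATAAA read the same on both strands. These are letter matches in a short window and do not show binding.

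The 3 muscle-type actins show how near relatives can be told apart by their reads. The first 60 coding bases of Acta1 (skeletal alpha-actin) are compared below with Actc1 (cardiac alpha-actin) and Acta2 (smooth muscle alpha-actin), from GENCODE M21 transcripts, with capitals where a base differs from Acta1. Actc1 differs at 9 and Acta2 at 17 of these 60 bases.
Acta1: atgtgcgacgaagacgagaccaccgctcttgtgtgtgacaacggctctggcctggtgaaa
Actc1: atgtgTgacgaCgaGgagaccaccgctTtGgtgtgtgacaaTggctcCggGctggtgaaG
Acta2: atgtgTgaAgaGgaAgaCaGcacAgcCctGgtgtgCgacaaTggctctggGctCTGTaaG
Over whole transcripts, 2.02% of the 50-base windows of Acta1, 0.326% of those of Acta2 and none of those of Actc1 occur exactly in a transcript of another gene. For the myosin heavy chains that share was 4.76% for Myh3, 12.1% for Myh8, 18.9% for Myh4, 24.6% for Myh2 and 30.5% for Myh1, with Myh7 between Myh4 and Myh2 and sharing most of its windows with Myh6. The read length is not given in the sources used here, and how reads with several matches were counted is not stated, so the split among Myh1, Myh2, Myh4 and Myh7 is uncertain.

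Across the 3 WT libraries the 40 genes summed to 1887, 2228 and 2237 counts, and across the 3 KO libraries to 79, 273 and 123 counts. In WT this was 0.0397, 0.0274 and 0.0632% of all counts. After scaling, the sums were 386.9, 273.8 and 691.4 CPM in WT (mean 450.7 ± 216.0, SD, n = 3; 330.4 without the library labelled WT replicate 3) and 16.0, 49.7 and 24.9 CPM in KO (mean 30.2 ± 17.5). The raw sums were closer to each other in WT than the scaled sums were. More than 3 counts were found in every WT library for 35 genes, and Myh2, Myh4, Cav3, Myf5 and Myf6 were the 5 others. In KO, 24 genes had no count in any library and 5 more had at most 3 counts in each, and these 29 together had 8 counts in KO against 4387 in WT. The 11 remaining genes held 467 of the 475 counts in KO. In bulk libraries, fewer cells of a type and less RNA per cell cannot be told apart.

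**Figure D1:**
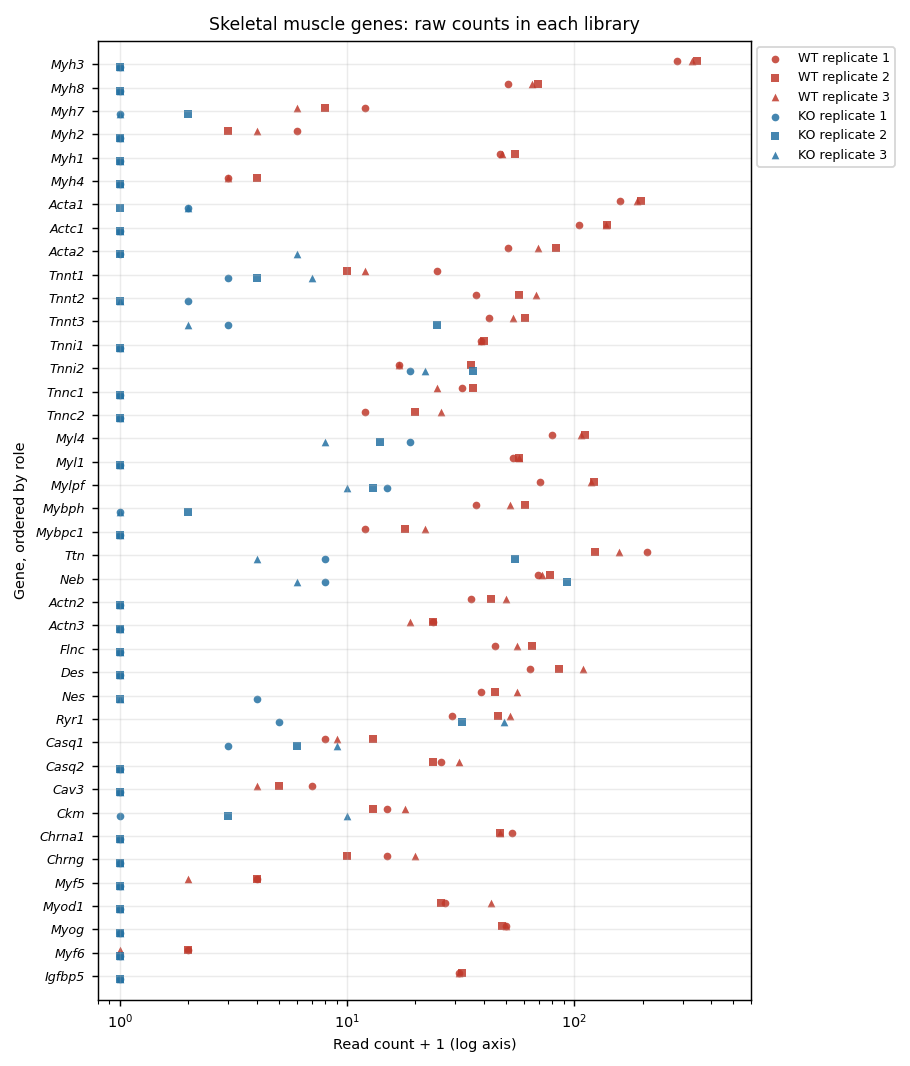
Raw read counts plus 1 (log axis) of the 40 skeletal muscle genes, ordered by role, in 3 WT libraries (red) and 3 KO libraries (blue), with 1 symbol shape per replicate number. KO symbols at the left edge are libraries with no count, as in all 3 KO libraries for 24 genes, and WT and KO symbols mix for genes such as Tnni2, Neb and Ryr1.

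After scaling, every KO library was below every WT library for 33 of the 40 genes and the groups overlapped for Tnnt1, Tnni2, Neb, Ryr1, Casq1, Ckm and Myf6. Among genes with at least 10 counts over the 6 libraries this held for 31 of 37 muscle genes, and for 6.40% of 15862 genes in the whole table. Of the 40 genes, 30 passed the filter on low counts, and 3 of those (Myh3, Acta1 and Actc1) were past edgeR's threshold as lower in KO, where 0.0559% of all 12513 genes tested were. Actc1 was not past it when WT replicate 1, the library labelled WT replicate 3 or any single KO library was left out. DESeq2 gave 35 of the 40 an adjusted p and put 25 past its threshold as lower, where 0.594% of 15148 genes were. Since these genes were chosen on this contrast, nothing is read from these counts of genes.

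Of the myosin heavy chains, Myh3 (embryonic; ENSMUSG00000020908) was counted 283, 346 and 329 times in WT and not at all in KO, which was at least 115-fold lower with each KO library set to 3 counts. Myh8, the perinatal isoform, had 50, 68 and 64 counts in WT and none in KO (at least a 21.8-fold difference). Both were present in all WT libraries at similar raw counts. After scaling, Myh3 was at 58.0, 42.5 and 101.7 CPM and Myh8 at 10.3, 8.36 and 19.8 CPM in WT. Of the adult fast isoforms, Myh1 (type IIX) had 46, 54 and 47 counts, while Myh2 (type IIA) had 5, 2 and 3 and Myh4 (type IIB) had 2, 3 and 2, all with none in KO. Myh7, the slow isoform shared with the heart ventricle, had 11, 7 and 5 counts in WT and 0, 1 and 0 in KO. The adult IIA and IIB isoforms were therefore at or near the detection limit while IIX was not. Myh3, Myh2, Myh1, Myh4 and Myh8 lie in this order in one cluster on the plus strand of chromosome 11, from 67078300 to 67308634 (mm10), and Myh7 lies on chromosome 14 from 54970684 to 54994626.

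Compared per length, as shares of the summed FPKM (the deposited values, counts scaled by gene length and column total) of these 6 genes, Myh3 made up 77.4, 78.4 and 79.4% in WT replicates 1 to 3. Embryonic Myh3 and perinatal Myh8 together made up 84.5, 86.5 and 87.5% (mean 86.2 ± 1.53, SD, n = 3; 85.5 without the library labelled WT replicate 3). The makeup thus varied little between WT libraries. Myh1 made up 11.1% ± 0.59, Myh8 7.78% ± 0.53, Myh7 1.34% ± 0.66, Myh2 0.74% ± 0.41 and Myh4 0.59% ± 0.10. With raw counts in place of FPKM the embryonic and perinatal share was 85.8%. The FPKM table divides Myh8 by 12.7 kb, whereas its longest coding transcript in GENCODE M21 has 6.15 kb, and with counts per kilobase of such transcripts the share was 85.9%. Adding the partners Myh6 (cardiac alpha; 3, 1 and 2 counts), Myh7b (2, 0 and 1) and Myh13 (extraocular; listed at 0) gave 85.6%.

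**Figure D2:**
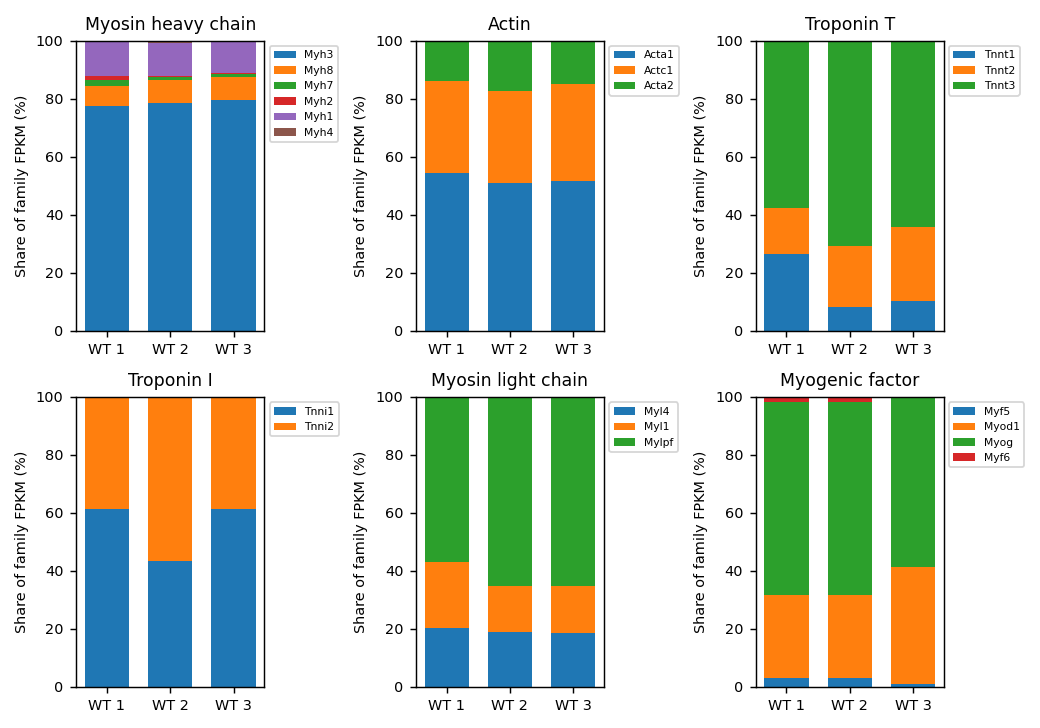
Share of each isoform in the summed FPKM of its family (%), in each of the 3 WT libraries, as stacked bars for 6 families. Myh3 makes up 77.4 to 79.4% of the myosin heavy chains in every WT library, whereas the troponin I and troponin T shares vary more between libraries.

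Acta1, the actin of adult skeletal fibres, had 158, 195 and 188 counts in WT and 1, 0 and 1 in KO. Actc1, the actin of heart and of fetal skeletal muscle, had 104, 138 and 137 counts in WT and none in KO (at least a 45.8-fold difference). Acta2, the smooth muscle actin that is also made in early myotubes, had 50, 82 and 68 counts in WT and 0, 0 and 5 in KO. All 3 actins were thus counted in every WT library. Per length, Acta1 made up 52.3% ± 1.86, Actc1 32.3% ± 0.88 and Acta2 15.4% ± 1.71 of the 3 actins in WT (FPKM shares, SD, n = 3). The smooth muscle genes Myh11, Cnn1, Lmod1, Actg2 and Myocd were at 0 in every library, while Smtn, the sixth of that list, had between 87 and 462 counts in each. Of the 7 cardiac markers, Myl7, Nppa, Nkx2-5 and Tbx5 were at 0 in every library, Ryr2 was at 0 in all WT libraries and at 7, 0 and 0 counts in KO, and Tnni3 was counted in both groups (71, 58 and 10 in WT, 43, 45 and 40 in KO). The summed level of that list was between 3.71 and 15.2 CPM in WT and between 8.09 and 10.1 CPM in KO, and that of the smooth muscle list, which Smtn made up alone, between 41.8 and 88.1 CPM in WT and between 17.6 and 63.5 CPM in KO.

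The troponins form the calcium switch of the thin filament, with troponin T binding tropomyosin, troponin I inhibiting and troponin C sensing calcium. Tnnt2 (fetal and cardiac) had 36, 56 and 67 counts in WT and 1, 0 and 0 in KO. Tnnt3 (fast) had 41, 60 and 53 counts in WT and 2, 24 and 1 in KO, so 1 KO library carried most of its KO counts. Tnnt1 (slow) had 24, 9 and 11 counts in WT and 2, 3 and 6 in KO, and the groups overlapped once scaled. Tnni1 (slow, and the form of developing fibres) had 38, 39 and 38 counts in WT and none in KO. Tnni2 (fast) was the exception, with 16, 34 and 16 counts in WT and 18, 35 and 21 in KO, so that its WT counts cannot be set apart from a level found in both groups. Its share of troponin I (44.7% ± 10.4 of FPKM in WT) therefore includes that level. Tnnc1 (slow and cardiac) had 31, 35 and 24 counts and Tnnc2 (fast) 11, 19 and 25 counts in WT, with none in KO. Tnnc2 shares 592 exon bases with Ube2c on the opposite strand, and 47.9% of its 50-base windows occur there. Without knowledge of strand, Tnnc2 reads in that shared part cannot be told from those of Ube2c. Tnni1 and Tnnt2 are neighbours on chromosome 1 (135779434 to 135852260), and Tnni2 and Tnnt3 on chromosome 7 (142441808 to 142516009).

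Among the myosin light chains, Myl1 (fast essential chain) had 53, 56 and 56 counts in WT and none in KO. Mylpf, the fast regulatory chain, had 70, 121 and 118 counts in WT and 14, 12 and 9 in KO. Myl4, the fetal and atrial essential chain, had 79, 111 and 106 counts in WT and 18, 13 and 7 in KO. Mylpf and Myl4 thus had counts in all KO libraries, yet below every WT library. Per length Mylpf made up 62.4% ± 4.76, Myl4 19.2% ± 0.95 and Myl1 18.4% ± 3.84 of the 3 light chains in WT. The slow and ventricular light chains Myl2 and Myl3 were at 0 in all 6 libraries. Mybph, a myosin-binding protein, had 36, 60 and 51 counts in WT and 0, 1 and 0 in KO, but it shares 1162 exon bases with Adora1 on the opposite strand. Mybpc1, the slow myosin-binding protein C, had 11, 17 and 21 counts in WT and none in KO, whereas its fast relative Mybpc2 had none in WT and 1, 1 and 0 in KO.

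Of the scaffold proteins, Des (desmin, the intermediate filament of muscle) had 63, 85 and 108 counts in WT and none in KO (at least a 32.2-fold difference). Actn2 and Actn3, the alpha-actinins that anchor actin at the Z-disc, had 34, 42 and 49 and 23, 23 and 18 counts in WT, and Flnc (filamin C) had 44, 64 and 55, all with none in KO. Nes (nestin, an intermediate filament of myoblasts and of neural precursors) had 38, 44 and 55 counts in WT and 3, 0 and 0 in KO. These 5 genes were therefore at or under the detection limit in every KO library. The giant proteins were different. Ttn (titin, the spring of the sarcomere) had 207, 123 and 156 counts in WT and 7, 54 and 3 in KO, and Neb (nebulin, which spans the thin filament) had 68, 77 and 71 in WT and 7, 92 and 5 in KO. KO replicate 2 exceeded every WT library in raw Neb counts but was below each of them in Ttn. That library also held the highest KO count of Tnnt3.

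Calcium release genes split in the same way. Casq2 (calsequestrin of slow and cardiac muscle, a calcium store) had 25, 23 and 30 counts in WT and none in KO. Ryr1, the calcium release channel, had 28, 45 and 51 counts in WT but also 4, 31 and 48 in KO, and Casq1 (fast calsequestrin) had 7, 12 and 8 in WT and 2, 5 and 8 in KO. Ryr1 and Casq1 overlapped between the groups. Ryr1 shares 864 exon bases with the antisense gene Gm26604. Cav3 (the muscle caveolin) had 6, 4 and 3 counts in WT and none in KO. Ckm, the creatine kinase of mature fibres, had 14, 12 and 17 counts in WT and 0, 2 and 9 in KO, and shares 451 exon bases with an antisense gene.

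At the nerve-muscle synapse, Chrna1 (alpha subunit of the acetylcholine receptor) had 52, 46 and 46 counts in WT and none in KO (at least a 17.3-fold difference). Chrng, the fetal gamma subunit, had 14, 9 and 19 counts in WT and none in KO. Its adult replacement Chrne, the epsilon subunit, had 3, 0 and 1 in WT and none in KO. The fetal subunit made up 72.3, 100 and 91.4% of the FPKM of this pair (mean 87.9 ± 14.2, SD, n = 3), with at most 3 counts of Chrne behind it. The delta subunit Chrnd had 11, 13 and 9 counts in WT and none in KO. The beta subunit Chrnb1 was counted in both groups (249, 676 and 288 in WT, 485, 299 and 182 in KO).

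All 4 myogenic factors were counted in WT and none had a count in KO. Myog (ENSMUSG00000026459, chromosome 1 from 134289989 to 134292548) had 49, 47 and 49 counts, and Myod1 (chromosome 7 from 46376474 to 46379099) had 26, 25 and 42. Myf5 had 3, 3 and 1 counts and Myf6, its neighbour on chromosome 10, had 1, 1 and 0, so both were at or under the detection limit. Per length Myog made up 64.0% ± 4.69 and Myod1 32.6% ± 6.89 of the 4 factors in WT, against 2.28% ± 1.23 for Myf5 and 1.11% ± 0.96 for Myf6. No 50-base window of Myog, Myod1, Myf5 or Myf6 occurs in another gene's transcript. Pax7, the satellite cell factor, had 2, 1 and 2 counts in WT and none in KO, and Pax3 was at 0 throughout. The fusion gene Mymk (myomaker) had 16, 32 and 30 counts and Mymx (myomixer) 3, 1 and 3 in WT, with none in KO. Igfbp5, a secreted binding protein of insulin-like growth factors that rises in differentiating myoblasts, had 30, 31 and 30 counts in WT and none in KO.

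The counts of each gene were then compared between the WT libraries, a measure that the contrast of WT and KO does not use. WT replicates 1 to 3 held 28.9, 49.5 and 21.5% of all WT counts. Of the counts of Myh3, they held 29.5% (exact Clopper-Pearson 95% interval 26.7 to 32.5), 36.1% (33.1 to 39.3) and 34.3% (31.3 to 37.4). Of those of Myog they held 33.8, 32.4 and 33.8%, and of those of Igfbp5 33.0, 34.1 and 33.0%. The deepest library thus held less, and the shallowest more, of these genes than of all counts. Of the 40 genes, 29 had at least 50 counts in WT, and the other 11 were too low to be compared. The interval for WT replicate 2 lay below its depth share for 27 of the 29, Tnnc1 and Tnni2 being the exceptions. For the library labelled WT replicate 3 it lay above its depth share for 26, with Tnnc1, Tnni2 and Actn3 as exceptions. Both held for 26 of 29, while both held for 15.1% of 12026 genes of the whole table with at least 50 WT counts. Ttn departed from the others, with 42.6% (38.2 to 47.1) in WT replicate 1 and 25.3% (21.5 to 29.4) in WT replicate 2. Tnni2, with 24.2, 51.5 and 24.2%, lay with all counts. These intervals cover counting error only, since reads without molecular identifiers are not independent molecules, and this pattern was known in part when the comparison was made.

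**Figure D3:**
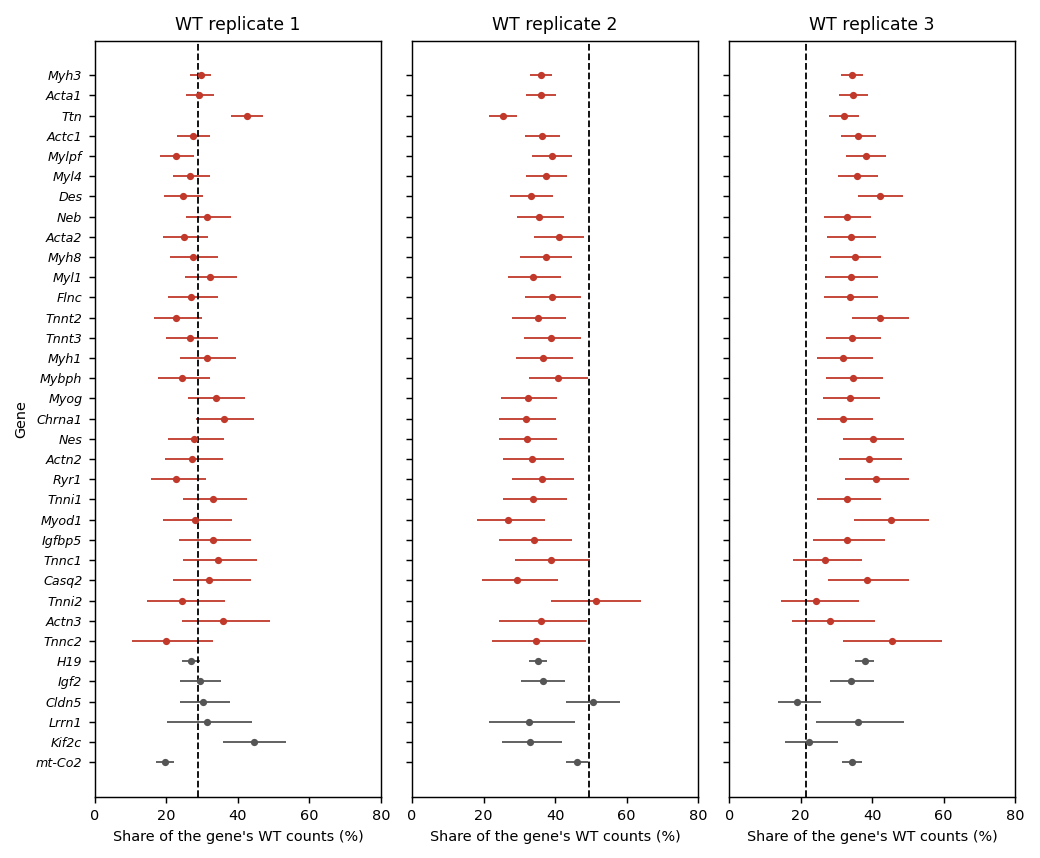
Share of a gene's WT counts (%) found in each of the 3 WT libraries, with exact 95% intervals, for the 29 muscle genes with at least 50 WT counts (red) and 6 other genes counted in WT and hardly in KO (grey). Dashed lines mark each library's share of all WT counts (28.9, 49.5 and 21.5%). In the middle and right panels nearly all of these 29 muscle genes lie to the left and right of that line, respectively.

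Muscle genes outside the 40 were read from 5 lists with 113 genes in all, covering the sarcomere, calcium release, the neuromuscular junction and membrane, myogenic regulators and fusion, and muscle metabolism. Of the 113 genes, 13 had no count in any library and 55 had more than 3 counts in every WT library, 25 of which had at most 3 in every KO library. Of 74 genes with at least 10 counts, every KO library was below every WT library for 45 and above for 1, whereas 6.40% of all genes with as many counts were below. By list, KO was below WT for 20 of 27 sarcomere genes, 10 of 13 calcium release genes, 8 of 14 junction and membrane genes, 7 of 12 regulators and 1 of 9 metabolic genes. Of the 113 genes, 54 had counts in WT and none in KO, and those among the 74 reached 10 counts through WT alone. For them KO below WT was largely fixed in advance, so nothing is read from these counts of genes. Of the 36 genes that passed the filter none passed edgeR's threshold, while 13 lower and 1 higher had an unadjusted p under 0.05, where 2.77% and 2.94% of the 12513 genes tested did. DESeq2 gave 62 of the 113 an adjusted p and called 9 lower and 0 higher, beside its 0.594% of lower calls over all genes. The median log2 fold change of the 36 was -0.63, beside -0.0054 over all genes tested, and -0.58 when the library labelled WT replicate 3 was left out. The median was -1.56 without WT replicate 2 and -1.93, -1.34 and -1.45 without KO replicates 1, 2 and 3, where 46 or 47 genes were tested. Of the 36 genes, 8 had at most 3 counts in every KO library and passed the filter through WT alone. Over the 18 that reached 10 counts in each of the 6 libraries, the median was -0.11. The size of the median thus rested on which low genes entered.

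**Figure D4:**
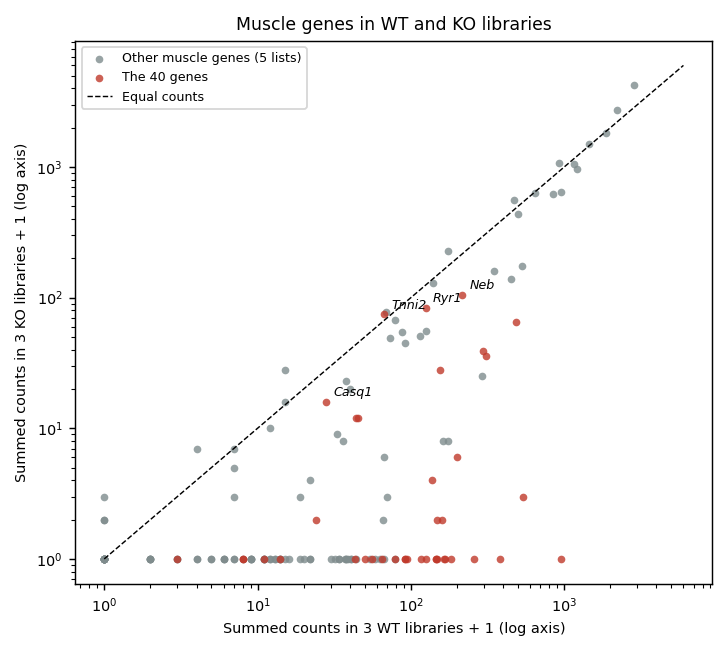
Summed counts plus 1 in the 3 KO libraries against those in the 3 WT libraries (log axes) for the 40 muscle genes (red) and the 113 genes of the 5 other muscle lists (grey), with a dashed line at equal counts. Points along the bottom edge had no KO count, and Tnni2, Ryr1, Neb and Casq1 lie nearest to the line among the 40.

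The genes named here, those of each list with the most WT counts, were counted in both groups, with overlapping libraries for all but 3. In the sarcomere list, Tpm1 (alpha-tropomyosin) had 576, 809 and 498 counts in WT and 473, 679 and 677 in KO. Tpm2 (beta-tropomyosin) had 133, 198 and 115 counts in WT and 64, 32 and 42 in KO (log2 fold change -1.67, standard error 0.48, edgeR adjusted p = 0.477). Tpm1 overlapped between the groups, while Tpm2 did not. In the calcium release list, Srl (sarcalumenin) had 251, 168 and 108 counts in WT and 82, 34 and 57 in KO (log2 fold change -1.62, standard error 0.53, edgeR adjusted p = 0.614), and Asph and Cacnb1 had log2 fold changes of 0.21 and -0.16. At the junction and membrane, Chrnb1, Sgcb and Dmd had log2 fold changes of -0.24, 0.12 and 0.29. Of the regulators, Mef2c, a MEF2 factor also used in blood cells, had 831, 1315 and 710 counts in WT and 1365, 1249 and 1604 in KO (log2 fold change 0.59, standard error 0.22, edgeR adjusted p = 0.766), and after scaling it was above WT in every KO library. Mef2d and Jam2 had log2 fold changes of 0.41 and 0.46. In the metabolic list, Pfkm, Pygm and Ak1 had log2 fold changes of -0.21, -0.60 and 0.37. None of these genes passed edgeR's threshold.

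The 9 genes that DESeq2 alone called were chosen for naming after their values were seen. Atp2a1, the calcium pump of fast fibres, had 40, 59 and 61 counts in WT and 2, 0 and 5 in KO. Unc45b, a myosin chaperone, had 160, 62 and 67 counts in WT and 12, 4 and 8 in KO, and Ncam1 had 71, 78 and 25 in WT and 1, 5 and 1 in KO. These 3 had counts in KO, below every WT library. Ldb3, Ankrd1, Jph2 and Mymk had between 15 and 32 counts in each WT library and none in KO, and Myom2 had 19, 20 and 26 in WT and 0, 0 and 1 in KO. Dok7, an activator of the kinase MuSK at the synapse, had 5, 4 and 53 counts in WT and none in KO, so that the library labelled WT replicate 3 held most of its counts. Of these 9 genes, Atp2a1, Ldb3, Myom2 and Dok7 lay below the depth share in WT replicate 2 and above it in WT replicate 3, as Myh3 did. For Unc45b only the first held, for Mymk and Jph2 only the second, and for Ankrd1 and Ncam1 neither. Cacna1s, the voltage sensor that opens Ryr1 and also chosen after its values were seen, had 12 counts in each WT library and none in KO.

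Markers of other cells did not share one pattern. Of 7 fibroblast genes, Dcn, Lum and Pdgfra were at 0 in every library, Col3a1 had 6, 4 and 5 counts in WT and none in KO, and Col1a1 had 15, 74 and 1 counts in WT and 19, 0 and 0 in KO. Col1a2 had 0, 2 and 18 counts in WT and 0, 17 and 8 in KO, and Postn had 0, 1 and 0 in WT and 0, 1 and 26 in KO. The summed level of that list lay between 4.31 and 9.95 CPM in WT and between 3.28 and 6.88 CPM in KO. Of 4 Schwann cell genes Sox10 was at 0 throughout, and their sum lay between 3.81 and 5.87 CPM in WT and between 5.06 and 16.0 CPM in KO. Of 4 endothelial genes none was at 0 throughout, Cldn5 had 54, 90 and 34 counts in WT and none in KO, and Cdh5 had none in WT and 0, 2 and 33 in KO. Kdr had 14, 88 and 0 counts in WT and 17, 0 and 16 in KO, and Pecam1 had between 266 and 608 in every library, while the list summed to between 68.5 and 113.1 CPM in WT and between 90.5 and 126.6 CPM in KO. Of 6 genes of mature blood cells Ly6g and Cd3e were at 0 throughout, and the sums lay between 1.35 and 6.49 CPM in WT and between 1.62 and 3.44 CPM in KO. The 9 genes of the HSC gate summed to between 2235 and 2508 CPM in WT and between 2026 and 2543 CPM in KO. Whether RNA of another cell type had a part in the muscle counts was not tested.

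Besides the muscle genes, 8 genes reached 20 or more counts in each WT library with no more than 3 in any KO library, and 3 genes (Zfp174, Calca and Sncg) had the opposite pattern. H19, a maternally expressed noncoding RNA of fetal tissues and of developing muscle, had 358, 470 and 505 counts in WT and none in KO. The study reports H19 as downregulated in KO and counts it among genes important for maintaining HSCs. Igf2, the paternally expressed growth factor gene beside it, had 73, 91 and 85 counts in WT and 0, 3 and 0 in KO. Its adjusted p was 0.176 with edgeR (log2 fold change -6.35, standard error 1.17) and 1.17e-05 with DESeq2. The count rule that picked these 8 genes uses this same contrast, so nothing is read from these p-values. H19 was at 26.9, 35.3 and 37.9% and Igf2 at 29.3, 36.5 and 34.1% of its WT counts in the 3 WT libraries, and both departed from depth in the same 2 libraries as Myh3. H19 (142575529 to 142578143) and Igf2 (142650766 to 142666816) lie on chromosome 7 just beyond Tnni2 and Tnnt3. Of the other 6 genes, Lrrn1 (20, 21 and 23 counts) and mt-Co2 (209, 495 and 367) departed from depth in both of these libraries too. Cldn5, Zfp462, Kif2c and Gm38062 did not in at least 1 of them. The gene mt-Co2 is encoded in the mitochondrial genome and is not particular to a cell type, yet it had no count in any KO library. Why mt-Co2 had none was not tested, nor was whether a lack of counts in KO reflects a lack of expression for the other genes. Kif2c had 44.6, 33.1 and 22.3% and Cldn5 had 30.3, 50.6 and 19.1% of its WT counts in WT replicates 1 to 3, so an absence from KO alone did not go with one division among WT libraries.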

How the data were processed

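The authors deposited a table of read counts per gene, not normalized, and a table of FPKM values, with 1 column per library. The submitters' processing notes name TopHat, HTSeq and mm10, whereas versions, annotation and strand setting are not given in the sources used here. The labels name the SMART-Seq v4 kit and the study's methods the TruSeq kit. The deposited FPKM equalled count over 1 length per gene and column total within 0.0703%. The 40 genes and all lists were chosen with earlier results of these data known.

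Counts were scaled by TMM and fitted over all genes with edgeR 4.0.16 in R 4.3.3 (filterByExpr, robust quasi-likelihood test, Benjamini-Hochberg threshold 0.05), after tests on simulated data. CPM used the TMM-scaled totals. Folds against libraries at 0 were computed with 3 counts in each KO library. Shares within families used FPKM, with means over 3 libraries. Alternatives were DESeq2 1.42.0, upper-quartile scaling, other filters, the replicate block, limma 3.58.1 on log2(FPKM + 1) and log2(FPKM + 0.1), and each library left out in turn. Coordinates and transcripts came from GENCODE M21 (GRCm38, the same assembly as mm10).

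Named were all 40 genes, isoform partners, list genes past the threshold or else the 3 with most WT counts, genes reaching 20 counts in each WT library with no more than 3 in any KO library or the opposite, and genes of the sort. Other genes are marked. One gene that this rule names is not reported here. Depths of 3537269 to 8131344 counts limit single genes to about 3 counts.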

Additional observations from a re-analysis of the deposited data

How the results depend on the processing

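Over all genes, edgeR called 9 (2 higher and 7 lower in KO), against 149 with DESeq2 (59 higher and 90 lower), 15 with limma on log2(FPKM + 1) at a mean FPKM of at least 1 (5 and 10) and between 5 and 11 with each library left out in turn, the lowest without WT replicate 1. Of the 113 other muscle genes, none was called under any edgeR or limma alternative, and DESeq2 called 9. Their median log2 fold change was negative under every alternative, namely -3.11 with DESeq2 and -3.59 without a filter (100 genes each), -0.11 with at least 10 counts in every library (18 genes), -0.38 and -0.29 on log2(FPKM + 1) with and without the FPKM filter (24 and 100 genes), and between -1.93 and -0.57 with each library left out, since other genes entered the median. Igf2 passed with DESeq2 only (log2 -6.52), from which nothing is read, since it was picked by a count rule on this contrast. With at least 10 counts in every library H19 and Igf2 were not tested, nor was Igf2 under the FPKM filter. The embryonic and perinatal myosin share lay between 85.5 and 87.0%, the number of genes above the limit in every WT library between 31 and 39, and the WT sum between 311.8 and 539.1 CPM. The counts per coding transcript and the sum over 29 genes were chosen after seeing the data.

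With a block for replicate number, 5 genes were called (0 higher and 5 lower), and the median was -0.78. Myh3 and Acta1 were among these 5 and Actc1 was not, while the calls of H19, Igf2 and the other muscle genes did not change. Actc1 also missed the threshold without WT replicate 1, the library labelled WT replicate 3 and each KO library, Myh3 on log2(FPKM + 1) without a filter, and none of the 3 was tested with at least 10 counts in every library. Same-numbered libraries had correlations of 0.170, 0.0324 and 0.170 of their deviations from the group means. The second was the lowest of these, and the numbers were not treated as pairs. The third libraries of both groups also had almost no Y-linked counts, and whether this bears on their correlation was not tested. Every library but WT replicate 2 correlated best with its own number.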
